A study of Homo sapiens with 2 samples.

Results

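The cells described here are the weakest responders to interferon gamma inside 3 groups of cultured carcinoma cells that responded strongly: the lowest 10% of each group, chosen by the summed transcripts of IDO1, CD74, WARS and GBP1, 108 cells of the 7804 barcodes measured. OVCAR5, an established ovarian carcinoma cell line that carried an IFNy-sensing reporter and was CFP+, was left unstimulated or exposed in culture to IFNy at 1, 10 or 100 ng/ml for 2, 6, 12 or 24 h, with frozen cells of the unstimulated and the 100 ng/ml cultures of 24 h added. The 18 conditions were marked with oligonucleotide-tagged antibodies (hashtags), mixed into 1 pool and measured in 1 droplet library of messenger RNA and 1 library of hashtags. Each cell carried a pair of the 8 hashtags. The labels do not tie a pair to a dose, a time or a frozen culture, so each group is named by its pair, and no dose or time is attached to a value.

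Cells with at least 500 genes, at least 10000 gene UMIs (molecules counted through unique molecular identifiers) and at most 20% mitochondrial UMIs numbered 6997, and 5956 of them had a clear pair, that is 2 hashtags of which the weaker exceeded the next one by 5 times or more, with 1 UMI added to the next one. In pairs 5+8, 6+8 and 7+8, cells in which KRT81, LDHB and S100A9 together reached 1000 CPM (UMIs per 1000000 gene UMIs of the cell) were set aside, 4 of 318, 9 of 455 and 8 of 345 cells. The lowest 10% of the others gave 31 weak cells in pair 5+8, 44 in pair 6+8 and 33 in pair 7+8, against 283, 402 and 304 cells in the rest of those pairs. Pair 5+7, with 319 cells, stands beside them as a low level. All of these groups were the same reporter line in the same pool. The pool is 1 sample, so cells and pairs are not replicates of a condition: no test was made, and every 95% interval covers counting error only, not the spread between cells or cultures.

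Interferon gamma binds a receptor made of IFNGR1 and IFNGR2, whose kinases JAK1 and JAK2 pass the signal to transcription factors. Among those that switch on genes for peptide presentation, T cell attracting chemokines and antiviral proteins is IRF1, itself raised by the signal. SOCS1 damps the signal. Single cells of a clonal line given the same cytokine are known to differ in how much of this programme they express.

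The 4 genes that chose the cells are a description and nothing rests on them. IDO1 starts the breakdown of tryptophan, WARS charges its transfer RNA, CD74 is the invariant chain that escorts MHC class II molecules, and GBP1 is a guanylate-binding protein of cell-autonomous defence. Summed over the cells, IDO1 stood at 964, 1591 and 1771 CPM in the weak cells of pairs 5+8, 6+8 and 7+8, against 3381, 4387 and 4721 CPM in the rest of the pairs and 27.3 CPM in pair 5+7. CD74 stood at 742, 736 and 740 CPM in the weak cells, against 1256, 1340 and 1378 CPM in the rest and 19.8 CPM in pair 5+7. WARS stood at 783, 1070 and 1113 CPM in the weak cells, against 1406, 1552 and 1590 CPM in the rest and 45.3 CPM in pair 5+7. GBP1 stood at 261, 332 and 343 CPM in the weak cells, against 455, 546 and 537 CPM in the rest and 10.9 CPM in pair 5+7. IDO1 weighed most in the choice: it held 52.3% to 57.5% of the 4 genes' UMIs in the rest of the pairs, and 34.5% to 44.3% in the weak cells. Of the 108 weak cells, 76 were under their pair's median for all 4 genes, 30 for 3 genes and 2 for 2 genes.

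As part of the choice, the sum of the 4 genes is given as a description. Its median was 3029, 3930 and 4293 CPM per weak cell in the 3 pairs, against 6160, 7537 and 8007 CPM in the rest, so the weak medians were 49.2%, 52.1% and 53.6% of the others. Pair 5+7 had a median of 84.5 CPM and a highest cell of 1121 CPM. Only 1 of the 314 cells of pair 5+8 lay at or under that highest cell, and 0 of 446 and 0 of 337 in pairs 6+8 and 7+8. The limit itself cut through a continuous range: the highest weak cells had 3370, 4755 and 5029 CPM, and the lowest cells of the rest had 3374, 4782 and 5047 CPM. The lowest weak cells stood further off, at 925, 1226 and 2011 CPM in the 3 pairs.

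**Figure D1:**
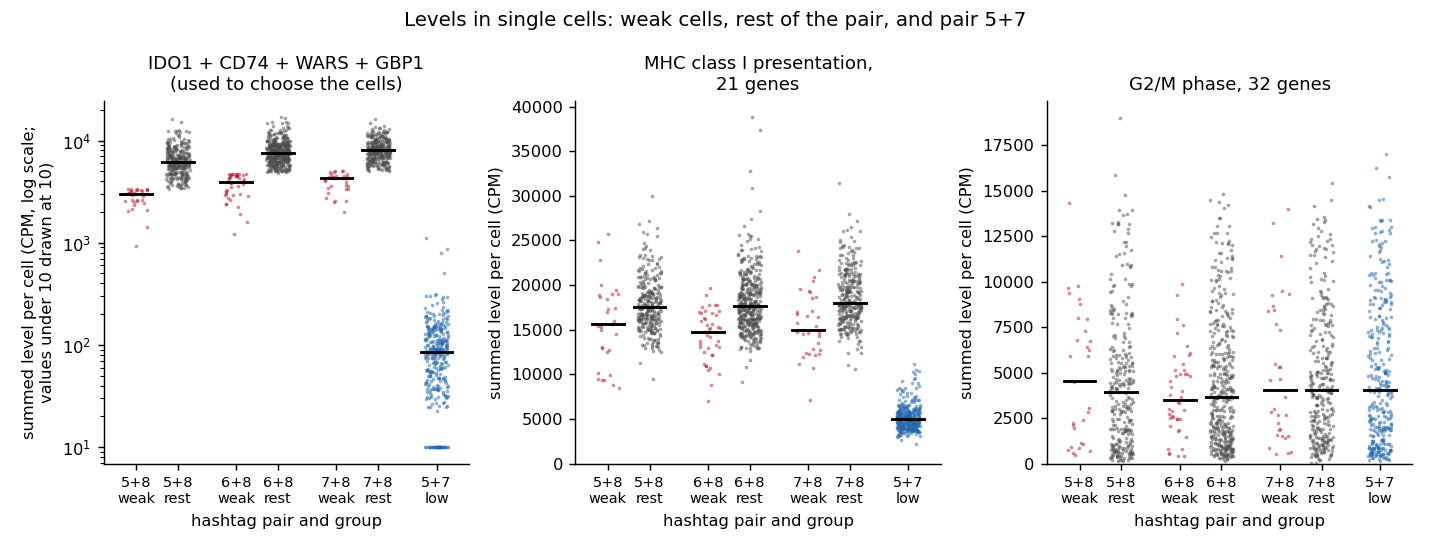
Each point is 1 cell, placed by hashtag pair and group, and black lines are medians; the vertical axes give summed CPM of the 4 genes that chose the cells (log scale, values under 10 drawn at 10), of 21 MHC class I presentation genes and of 32 G2/M genes. In the first panel the weak cells have medians of 3029 to 4293 CPM, close under the rest of their pairs and far above pair 5+7 at 84.5 CPM. In the second the weak cells and the rest overlap. Summed over its cells, pair 5+7 has 5142 CPM there, against 14432 to 15074 CPM in the weak cells. In the third panel all groups lie at like levels.

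A split of each cell's UMIs describes how far counting error entered the choice of the weak cells. When each cell's UMIs were put at random into 2 equal portions and the cells were ranked on one portion, the other portion gave IDO1 levels in the weak cells that were 0.32, 0.38 and 0.40 of the rest in pairs 5+8, 6+8 and 7+8. CD74 gave 0.59, 0.58 and 0.55 of the rest, and WARS 0.62, 0.74 and 0.70. GBP1 gave 0.58, 0.63 and 0.76 of the rest, against 0.49, 0.59 and 0.53 in the portion used for ranking. The sum of the 4 genes in one portion correlated with that in the other across the cells of a pair, with a Spearman rho of 0.90, 0.89 and 0.89 over 314, 446 and 337 cells. This describes counting error only and lends the choice no support, since both portions hold the same 4 genes of the same cell and library. Of the weak cells of one portion, 20 of 31, 32 of 44 and 24 of 33 were also in the lowest 10% of the other.

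Depth and RNA quality were like those of the rest. Median gene UMIs per cell were 30652, 31466 and 27379 in the weak cells, against 29728, 29291.5 and 29464.5 in the rest, with 29744 in pair 5+7. Median mitochondrial shares were 12.5%, 11.7% and 11.9% in the weak cells, against 12.4%, 12.5% and 12.5% in the rest. The median share of hashtag UMIs on the next hashtag was 0.370%, 1.02% and 0.676% in the weak cells, against 0.453%, 0.843% and 0.729% in the rest. In pair 5+8, hashtag 7 was that next hashtag in 4 of 31 weak cells, against 19 of 283 cells of the rest. Cells under 5% mitochondrial UMIs numbered 1 of 31, 3 of 44 and 0 of 33 weak cells, against 3 of 283, 4 of 402 and 0 of 304 in the rest, and the part of these cells in the results was not tested.

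The label of a carcinoma cell held in the weak cells. Keratins KRT8 and KRT18, which build the filaments of simple epithelia, stood at 1042, 1247 and 1203 CPM and at 2250, 2469 and 2482 CPM in the weak cells, against 1053, 1043 and 1054 CPM and 2111, 2040 and 2102 CPM in the rest. KRT19, another keratin, was below the rest in all 3 pairs, at 175, 216 and 147 CPM in the weak cells, against 235, 236 and 207 CPM in the rest. Markers of other cell types were at or near 0. The 9 T cell markers had 0, 1 and 0 UMIs in all weak cells together, against 4, 2 and 2 UMIs in the rest, and the 6 endothelial markers had 0, 0 and 0 UMIs, against 0, 1 and 3. The 7 fibroblast markers had 0, 1 and 1 UMIs in the weak cells, against 7, 7 and 6 in the rest. The 8 myeloid markers summed to 34.2, 43.0 and 45.1 CPM in the weak cells and 35.1, 34.6 and 38.2 CPM in the rest, nearly all of it CD68, a lysosomal protein also made outside myeloid cells. The 10 leading genes of the cells set aside for KRT81, LDHB and S100A9 summed to 7.25, 9.71 and 6.15 CPM (7, 14 and 6 UMIs) in the weak cells, against 4.93, 3.92 and 4.25 CPM in the rest, and their part in the results was not tested.

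The receptor and kinase genes were below the rest as a list, with an interval that excluded 1 in pair 6+8 but not in pairs 5+8 and 7+8. The 7 genes of receptors and JAK kinases summed to 188, 184 and 195 CPM in the weak cells, against 204, 219 and 216 CPM in the rest, or 0.93 (95% interval 0.79 to 1.08), 0.84 (0.74 to 0.96) and 0.90 (0.77 to 1.05) of the rest. IFNGR2 stood at 39.4, 37.4 and 33.8 CPM in the weak cells, against 35.2, 31.4 and 35.8 CPM in the rest. IFNGR1 stood at 13.5, 10.4 and 11.3 CPM, against 15.9, 16.6 and 16.3 CPM. JAK1 stood at 63.2, 69.3 and 56.4 CPM in the weak cells, against 73.2, 76.8 and 76.1 CPM in the rest. JAK1 and IFNGR1 were below the rest in all 3 pairs. Only the JAK1 interval in pair 7+8, 0.55 to 0.97, lay under 1, and the other 5 intervals of these genes held 1. JAK2, whose gene is itself raised by interferon, stood at 10.4 and 9.70 CPM in the weak cells of pairs 5+8 and 6+8, against 21.1 and 26.6 CPM, but at 31.8 CPM in pair 7+8, against 28.5 CPM. The JAK2 folds were 0.49 (0.23 to 0.92), 0.36 (0.20 to 0.62) and 1.12 (0.74 to 1.62).

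The transcription factors were moderately lower. Their 16 genes summed to 2168, 2591 and 2694 CPM in the weak cells, against 2894, 3203 and 3312 CPM in the rest and 487 CPM in pair 5+7, or 0.75 (0.72 to 0.78), 0.81 (0.78 to 0.84) and 0.81 (0.78 to 0.85) of the rest. Of the 16 genes, 12 were below the rest in all 3 pairs and 0 above, where 17.2% of the 8024 genes with at least 300 UMIs were below in all 3 pairs and 18.1% above. IRF1, a transcription factor of the interferon response, stood at 507, 912 and 769 CPM in the weak cells, against 851, 1065 and 1101 CPM in the rest. Between the pairs, IRF1 was furthest below the rest in pair 5+8.

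The 10 negative regulators summed to 295, 311 and 297 CPM in the weak cells, against 294, 346 and 333 CPM in the rest, or 1.00 (0.88 to 1.13), 0.90 (0.81 to 0.99) and 0.89 (0.79 to 1.01). SOCS1, which blocks the JAK kinases, stood at 34.2, 54.1 and 69.7 CPM in the weak cells, against 42.6, 82.5 and 87.3 CPM in the rest and 4.57 CPM in pair 5+7. USP18, which removes ISG15 and restrains the type I receptor, stood at 11.4, 11.1 and 12.3 CPM in the weak cells, against 18.9, 20.7 and 19.2 CPM in the rest. PTPN1, a phosphatase of the JAK kinases, stood at 134, 130 and 100.4 CPM in the weak cells and 121, 121 and 112 CPM in the rest. None of these 3 inhibitors was higher in the weak cells of all 3 pairs.

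MHC class I presentation kept most of its level. The 21 genes summed to 15053, 14432 and 15074 CPM in the weak cells, against 17572, 17746 and 18325 CPM in the rest, or 0.86 (0.84 to 0.87), 0.81 (0.80 to 0.82) and 0.82 (0.81 to 0.84). On the way from pair 5+7 to the rest, the weak cells stood at 79.7%, 73.7% and 75.3%. Of 20 genes with enough UMIs, 18 were below the rest in all 3 pairs, and 0 of 20 were lower by 1.5-fold or more in all 3, a fold passed by 38 of the 8024 genes tested, or 0.474%. B2M, the shared light chain, stood at 5230, 4754 and 4937 CPM in the weak cells, against 5995, 5852 and 6004 CPM in the rest and 1828 CPM in pair 5+7. TAP1, a subunit of the peptide pump of the endoplasmic reticulum, stood at 324, 391 and 359 CPM in the weak cells, against 423, 459 and 486 CPM in the rest. NLRC5, the transactivator of class I genes, had few UMIs, so a moderate difference could be missed. It was near the level of the rest, with 19.7, 23.6 and 20.5 CPM in the weak cells, against 19.6, 22.8 and 22.2 CPM.

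MHC class II genes were lower than class I genes relative to the rest. The cells were chosen to be low in CD74, which escorts class II molecules, and no class I gene was in the rule. The order of these lists is therefore not independent of the choice. Without CD74, the 14 genes summed to 515, 663 and 569 CPM in the weak cells, against 876, 1011 and 1044 CPM in the rest, or 0.59 (0.54 to 0.64), 0.66 (0.61 to 0.70) and 0.54 (0.50 to 0.59). All 9 genes with enough UMIs were below the rest in all 3 pairs, and 5 were lower by 1.5-fold or more in each: HLA-DPA1, HLA-DPB1, HLA-DQB1, HLA-DMB and CTSS. HLA-DRA, the constant chain of HLA-DR, stood at 134, 183 and 137 CPM in the weak cells, against 241, 262 and 274 CPM in the rest and 4.27 CPM in pair 5+7. With every cell thinned to 10000 UMIs, 62.0% of weak cells (52.2 to 71.2) held at least 1 HLA-DRA UMI, against 80.3% (77.7 to 82.7) of the rest and 2.51% of pair 5+7. Without thinning, the shares were 77.8% and 92.7%. CTSS, a protease that trims the invariant chain, stood at 22.8, 27.7 and 31.8 CPM in the weak cells, against 39.7, 50.3 and 54.2 CPM in the rest. CIITA, the transactivator of class II genes, had few UMIs and stood at 12.4, 23.6 and 25.6 CPM in the weak cells, against 21.2, 28.6 and 27.0 CPM. Ranking the cells without IDO1 moved the median fold over the pairs to 0.39 for the class II list, against 0.59 with IDO1, and to 0.31 for HLA-DRA, against 0.55. HLA genes resemble each other, as do guanylate-binding protein genes, and how reads that match several of them were counted is not given in the sources, so single members are uncertain.

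Under the rule, which held GBP1, the other guanylate-binding proteins were about as far down as class II. Their 6 genes summed to 628, 641 and 777 CPM in the weak cells, against 1033, 1227 and 1291 CPM in the rest, or 0.61 (0.56 to 0.66), 0.52 (0.49 to 0.56) and 0.60 (0.56 to 0.65), and 98 of the 108 weak cells lay under their pair's median. All 5 genes with enough UMIs were below the rest in all 3 pairs. GBP5, at chr1:89258950-89272804 on the minus strand (GRCh38), stood at 89.1, 129 and 113 CPM in the weak cells, against 234, 276 and 303 CPM in the rest and 0.914 CPM in pair 5+7. It was seen in 45.4% of thinned weak cells (35.8 to 55.2), against 68.0% (65.0 to 70.9) of the rest and 0.940% of pair 5+7. GBP7 stood at 9.32, 20.8 and 19.5 CPM in the weak cells, against 29.6, 33.4 and 40.1 CPM in the rest. The median fold of GBP5 over the pairs, 0.38, became 0.81 when the cells were ranked without IDO1 and 0.60 when no cells were set aside for KRT81, LDHB and S100A9. GBP4, GBP2 and GBP3 had folds between 0.48 and 0.85 in the 3 pairs.

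The chemokines had the lowest folds of the interferon lists in pairs 5+8 and 7+8, and the widest range between pairs. The 14 genes of chemokines and IL6 summed to 68.3, 315 and 188 CPM in the weak cells, against 299.6, 594 and 674 CPM in the rest, or 0.23 (0.18 to 0.29), 0.53 (0.48 to 0.58) and 0.28 (0.24 to 0.32). CXCL9, CXCL10 and CXCL11, neighbours on chromosome 4, bind the receptor CXCR3 and draw activated T cells. CXCL11 stood at 13.5, 73.5 and 60.5 CPM in the weak cells, against 107, 207 and 224 CPM in the rest and 1.73 CPM in pair 5+7. Of thinned weak cells, 18.5% (11.7 to 27.1) held a CXCL11 UMI, against 55.3% (52.1 to 58.4) of the rest and 2.51% of pair 5+7. CXCL9 stood at 3.11, 15.3 and 36.9 CPM in the weak cells, against 20.8, 43.9 and 61.6 CPM in the rest, with only 61 UMIs in all weak cells. CXCL10 stood at 39.4, 213 and 67.6 CPM in the weak cells, against 126, 313 and 352 CPM in the rest. In pair 6+8, 1 weak cell held 130 of the 307 CXCL10 UMIs, and without it the weak level was 127 CPM. Single weak cells could hold many of these transcripts: the highest had 22 CXCL11 UMIs in pair 6+8 and 18 CXCL9 UMIs in pair 7+8. The median fold of CXCL11 over the pairs, 0.27, became 0.51 in a ranking without IDO1 and 0.16 after thinning and ranking anew. With no cells set aside for KRT81, LDHB and S100A9, that of the list, 0.28, became 0.51, and that of CXCL9, 0.35, became 2.17, so the direction of CXCL9 depended on this limit.

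CCL5, a chemokine that draws T cells, rested on few cells. Its weak cells held 0, 2 and 6 UMIs, against 249, 181 and 208 UMIs in the rest, in which 58 of 989 cells held any. The 53 cells highest in CCL5, HERC5, RSAD2 and OASL were also left out, 2 of them weak. The CCL5 fold over the 3 pairs became 1.27, 1.09 and 0.48, a shift partly built in, since CCL5 helped choose these cells. CXCL11 then stood at 0.16, 0.34 and 0.30 of the rest, and GBP5 at 0.43, 0.49 and 0.36.

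The stretches before CXCL10 and CXCL11 are shown because both neighbours were below the rest in all 3 pairs, with letters from RefSeq on GRCh38.p14. Both genes lie on the minus strand, and the 250 bases before each start are chr4:76023498-76023747 and chr4:76036071-76036320, printed 5′ to 3′ along the gene. The starts are those of RefSeq: GENCODE extends the CXCL11 gene to position 76041415, so the stretch printed for CXCL11 lies inside that longer span. Capitals mark matches on either strand to GAAANNGAAA, a form of the interferon-stimulated response element, or to TTCNNNGAA, a form of the gamma-activated sequence.
CXCL10: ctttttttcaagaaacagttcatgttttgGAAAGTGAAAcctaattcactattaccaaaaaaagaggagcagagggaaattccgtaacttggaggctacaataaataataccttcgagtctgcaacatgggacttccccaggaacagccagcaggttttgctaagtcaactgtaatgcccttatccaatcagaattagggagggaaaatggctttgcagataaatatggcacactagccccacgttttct
CXCL11: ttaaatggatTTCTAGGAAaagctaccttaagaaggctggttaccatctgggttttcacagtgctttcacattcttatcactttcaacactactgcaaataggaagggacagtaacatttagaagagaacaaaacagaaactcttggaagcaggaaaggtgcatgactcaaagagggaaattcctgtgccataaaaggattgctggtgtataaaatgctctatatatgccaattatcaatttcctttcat
CXCL10 held 1 match to GAAANNGAAA and CXCL11 held 1 to TTCNNNGAA. With a fold of 0.68 in pair 6+8, CXCL10 was not among the 38 lower genes, so its match is not counted with theirs. Of the 38 genes lower in the weak cells, 27 had such a stretch, and 4 of the 27 (14.8%) held GAAANNGAAA, against 2.71% of 6500 tested genes and 3.07% of all 27305 stretches. TTCNNNGAA was in 1 of the 27 (3.70%), against 5.94% and 6.78%. A match is a run of letters, not a site shown to be bound.

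Antiviral effectors were lower across the list. The 36 genes summed to 6264, 6682 and 7725 CPM in the weak cells, against 9194, 9834 and 10383 CPM in the rest, or 0.68 (0.66 to 0.70), 0.68 (0.67 to 0.69) and 0.74 (0.73 to 0.76), and 97 of 108 weak cells lay under their pair's median. Of 35 genes with enough UMIs, 32 were below the rest in all 3 pairs and 4 were lower by 1.5-fold or more in each. These were the RNA sensors IFIH1 and DDX58, and the effectors IFIT2 and OAS2. IFIH1 stood at 69.4, 86.7 and 90.2 CPM in the weak cells, against 134, 156 and 168 CPM in the rest. IFIT2 stood at 38.3, 56.2 and 67.6 CPM in the weak cells, against 85.1, 109.6 and 118 CPM in the rest. ISG15, a ubiquitin-like modifier, stood at 1080, 1075 and 1264 CPM in the weak cells, against 1660, 1711 and 1814 CPM in the rest. HERC5, RSAD2 and OASL were far lower in pairs 5+8 and 6+8, with folds of 0.16 to 0.28, and close to the rest in pair 7+8, with folds of 0.75 to 0.85. These folds rested on few UMIs and cells. Weak cells of the 3 pairs held 2, 6 and 17 UMIs of HERC5, 3, 8 and 20 of RSAD2, and 19, 18 and 66 of OASL. In pair 7+8, 2 of 33 weak cells held all the HERC5 UMIs. The top weak cell there held 14 of the RSAD2 UMIs, and that for OASL held 26. Without the 53 cells highest in CCL5 and these 3 genes, HERC5 had folds of 0.68, 0.70 and 0.54 in the 3 pairs. RSAD2 then had folds of 0.56, 0.48 and 0.44, and OASL of 0.69, 0.40 and 0.50. The contrast between pairs was not kept, but these same genes chose the cells left out, so part of the shift is built in. IFIT2 then had folds of 0.61, 0.77 and 0.53 and no longer passed 1.5-fold in pair 6+8.

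Death ligands and checkpoint genes were lower to different degrees. TNFSF10, the death ligand TRAIL, stood at 44.5, 41.6 and 68.7 CPM in the weak cells, against 120, 150 and 162 CPM in the rest and 31.5 CPM in pair 5+7. It was seen in 38.9% of thinned weak cells (29.7 to 48.7), against 62.6% (59.5 to 65.6) of the rest. The APOL, caspase and death gene list as a whole had folds of 0.78, 0.77 and 0.83. The 8 genes of checkpoint ligands and KYNU had folds of 0.91 (0.80 to 1.02), 0.78 (0.71 to 0.86) and 0.86 (0.76 to 0.96), with 5 of 6 genes with enough UMIs below the rest in all 3 pairs. CD274, the checkpoint ligand PD-L1, stood at 16.6, 30.5 and 22.5 CPM in the weak cells, against 26.0, 31.4 and 30.7 CPM in the rest. CD274 had 82 UMIs in all weak cells, and its thinned shares were 19.4% (12.5 to 28.2), against 25.3% (22.6 to 28.1), so a difference was not detectable at this depth.

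**Figure D2:**
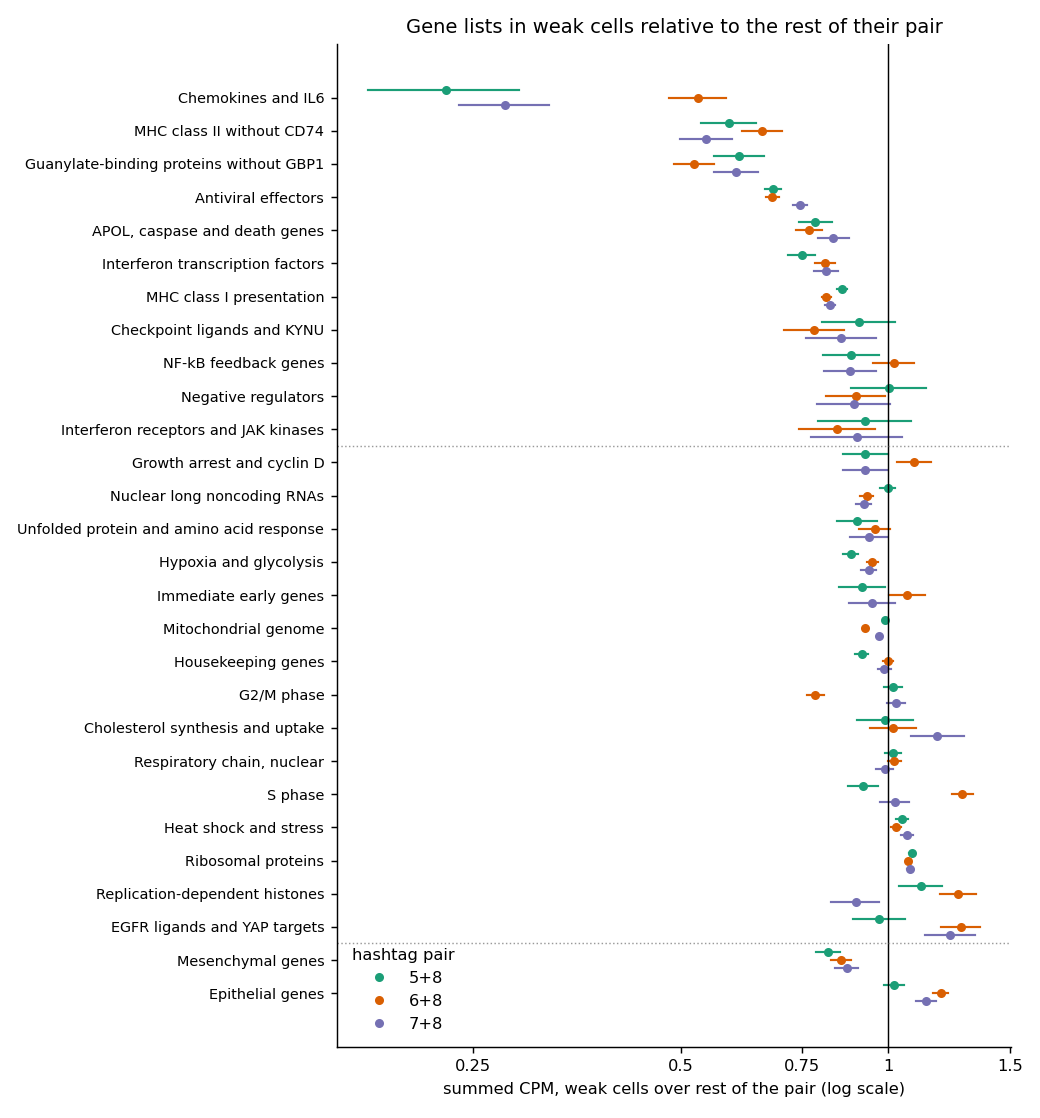
Points give the summed CPM of each gene list in the weak cells over the rest of the same pair (log scale), coloured by hashtag pair, with 95% intervals for counting error; interferon lists stand above the first dotted line, cell state lists below it and identity lists at the bottom. Chemokines lie at 0.23 to 0.53, MHC class II at 0.54 to 0.66, MHC class I at 0.81 to 0.86, and most cell state lists near 1.

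Across all 8024 genes, the weak cells differed from the rest in few genes. The median fold over all genes was 1.00. In single pairs, 7.78%, 5.6% and 6.33% of genes were lower by 1.5-fold or more, and 3.29%, 2.9% and 3.74% were higher. In all 3 pairs at once, 38 genes were lower (0.474%) and 3 were higher (0.0374%). Of the 38 lower genes, 16 (42.1%) belonged to interferon lists, which held 135 (1.68%) of the genes tested. Of the 38, 21 had intervals under 1 in all 3 pairs, as did 104 of all genes tested (1.30%). A ranking without IDO1 gave 42 lower genes, 12 of them among the 38, and 84 were lower when no cells were set aside. The 21 genes held 14 genes of interferon lists, besides TYMP, TNFSF13B, CMPK2, TMEM173, SECTM1, RNF213 and AL713998.1, which were in no list and are named after their values were seen. TNFSF13B is the B cell survival factor BAFF, TMEM173 is the DNA sensing adaptor STING, TYMP is thymidine phosphorylase, and CMPK2 is a mitochondrial nucleotide kinase. RNF213, a large ubiquitin ligase, stood at 430, 518 and 571 CPM in the weak cells, against 674, 821 and 887 CPM in the rest. The other 17 of the 38 had 1 or more intervals that held 1, and 22 or fewer UMIs in the weak cells of each pair, HLA-DQB1 having the most.

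**Figure D3:**
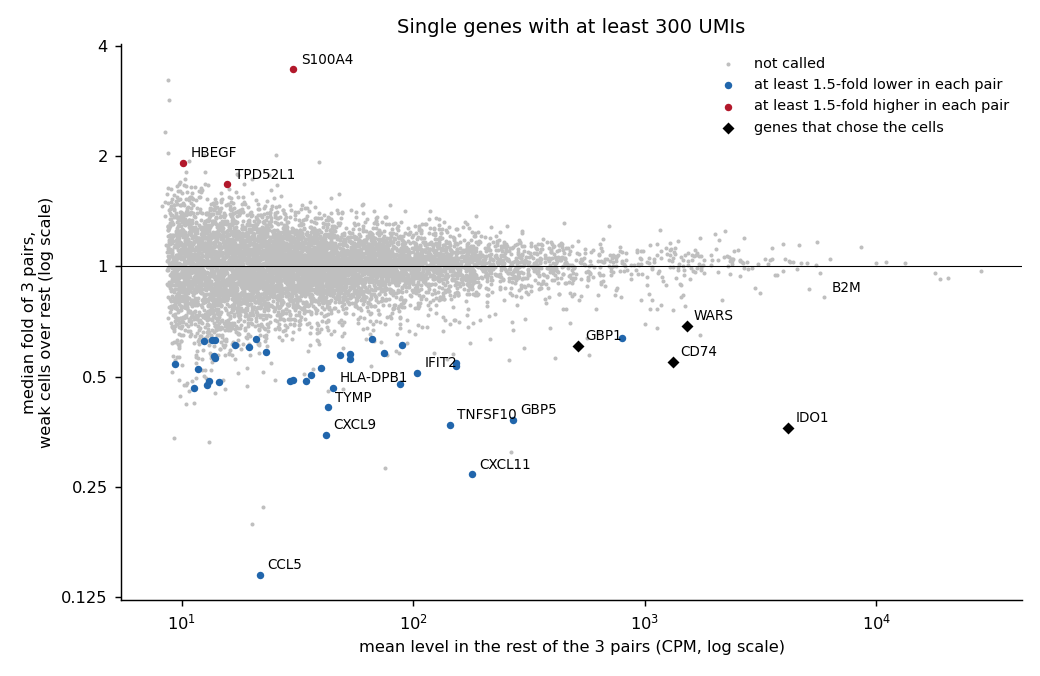
Each point is 1 gene with at least 300 UMIs; the horizontal axis is its mean CPM in the rest of the 3 pairs and the vertical axis the median over the pairs of the fold, weak cells over rest (both log scales). Blue points are the 38 genes lower by 1.5-fold or more in each pair, red points the 3 higher, and black diamonds the 4 genes that chose the cells; S100A4, at 3.45, is the highest of all.

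Only S100A4, HBEGF and TPD52L1 were higher by 1.5-fold or more in all 3 pairs. S100A4, a calcium-binding protein linked to cell motility, at chr1:153543613-153550136 on the minus strand (GRCh38), stood at 104.6, 114 and 109.6 CPM in the weak cells, against 33.0, 32.9 and 25.2 CPM in the rest and 75.8 CPM in pair 5+7. Its level was uneven in both groups: the top 10% of weak cells held 59.4%, 88.4% and 72.9% of its UMIs, against 72.2%, 78.6% and 75.1% in the rest. In pair 6+8, 1 weak cell held 61 of 164 UMIs. Without the top cell of each pair, the folds were 2.69, 2.22 and 2.48. With cells thinned and ranked anew, which kept 86 of the 108 weak cells, the median fold was 1.99, against 3.45. S100A4 was seen in 24.1% of thinned weak cells (16.4 to 33.3), against 15.6% (13.4 to 17.98) of the rest and 22.6% of pair 5+7. In the 21 cells set aside for KRT81, LDHB and S100A9 it stood at 7.67 CPM. HBEGF, a ligand of the EGF receptor, had 20, 46 and 16 UMIs in the weak cells. Its folds were 1.92 (1.12 to 3.14), 3.22 (2.24 to 4.55) and 1.68 (0.92 to 2.87), with a median of 1.21 in cells thinned and ranked anew. TPD52L1, a coiled-coil protein of the tumour protein D52 family, stood at 28.0, 25.0 and 25.6 CPM in the weak cells, against 15.6, 16.3 and 15.3 CPM in the rest. Without the top weak cell of each pair, HBEGF had folds of 1.499, 2.58 and 1.19 and TPD52L1 of 1.66, 1.41 and 1.52, so neither passed 1.5-fold in all 3 pairs. When the cells were ranked without IDO1, none of these 3 genes was higher by 1.5-fold in all 3 pairs, although S100A4 had a median fold of 1.81.

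The other genes with the highest folds were mostly thin. ANKRD1, a target of YAP, had 12, 57 and 21 UMIs in the weak cells and folds of 1.27, 4.38 and 2.85. FABP4, a fatty acid binding protein, had folds of 3.53, 3.24 and 1.00, and 1 weak cell of pair 5+8 held 31 of its 43 UMIs there. SLC7A5, the light chain of an amino acid transporter, stood at 82.8, 59.6 and 72.8 CPM in the weak cells, against 39.9, 39.9 and 37.8 CPM in the rest and 63.1 CPM in pair 5+7. CLDN11, a tight junction protein, stood at 47.6, 52.0 and 35.9 CPM in the weak cells, against 23.6, 24.6 and 28.7 CPM in the rest. The EGFR ligand and YAP target list summed to 0.97 (0.89 to 1.06), 1.27 (1.19 to 1.36) and 1.23 (1.13 to 1.34) of the rest, with 6 of 11 genes above the rest in all 3 pairs.

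Cell cycle did not set the weak cells apart in the same way in all 3 pairs. The 32 G2/M genes summed to 5099, 3878 and 5302 CPM in the weak cells, against 5019, 4945 and 5166 CPM in the rest, or 1.02 (0.99 to 1.05), 0.78 (0.76 to 0.81) and 1.03 (1.00 to 1.06). S phase genes had folds of 0.92, 1.28 and 1.02. In pair 6+8 the weak cells as a sum thus had fewer G2/M and more S phase transcripts, and the part of this in that pair's other values was not tested. Cell by cell, 22 of its 44 weak cells lay under the median of the rest for G2/M, and 11 of 44 for S phase. Median G2/M levels were 3516 CPM per weak cell and 3650 CPM in the rest. With only cells at or under their pair's median of G2/M transcripts, ranked anew, MHC class I had a fold of 0.82, MHC class II 0.60 and antiviral effectors 0.72 as medians of the pairs. Across single cells the rank of the 4 genes and that of the G2/M list were nearly unrelated, with a Spearman rho of -0.02, -0.02 and -0.04.

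Ribosomal protein transcripts were slightly higher and mitochondrial ones slightly lower. The 20 ribosomal genes had folds of 1.08 (1.07 to 1.09), 1.07 (1.06 to 1.08) and 1.08 (1.07 to 1.08), with 17 of 20 above the rest in all 3 pairs. The 13 genes of the mitochondrial genome had folds of 0.99 (0.98 to 1.00), 0.93 (0.92 to 0.93) and 0.97 (0.96 to 0.98). VIM, the mesenchymal filament protein vimentin, stood at 2518, 2678 and 2778 CPM in the weak cells, against 3121, 3169 and 3188 CPM in the rest and 2816 CPM in pair 5+7. The epithelial list had folds of 1.02, 1.19 and 1.13. KRT7 stood at 195, 287 and 187 CPM in the weak cells and 216, 194 and 193 CPM in the rest, higher only in pair 6+8.

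When each pair was cut into 10 equal bins by the 4 genes, MHC class I and CXCL11 levels in the cells next above the weak cells lay between those of the weak cells and those of the highest cells. MHC class I stood at 15053, 14432 and 15074 CPM in the weak cells, 16561, 15466 and 17399 CPM in the 10% of cells next above them, and 21153, 21629 and 21235 CPM in the highest 10%. CXCL11 stood at 13.5, 73.5 and 60.5 CPM in the weak cells, 29.0, 90.3 and 137 CPM in the 10% next above them, and 313, 419 and 466 CPM in the highest 10%. MHC class II without CD74 did not follow this in pair 5+8. It stood at 515, 663 and 569 CPM in the weak cells and at 514, 740 and 849 CPM in the 10% next above them. HLA-DRA in pair 6+8 stood at 183 CPM in the weak cells and at 182 and 165 CPM in the next 2 bins. S100A4 stood at 104.6, 114 and 109.6 CPM in the weak cells, and at 53.8, 37.4 and 14.4 CPM in the 10% next above them. The fourth of the 10 bins of pair 6+8 also had 90.6 CPM of S100A4, and the weak cells of that pair had 73.2 CPM without their top cell. Across the cells of a pair, the rank of the 4 genes and that of MHC class I had a Spearman rho of 0.41, 0.56 and 0.44, which describes cells of 1 library that share depth and total.

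**Figure D4:**
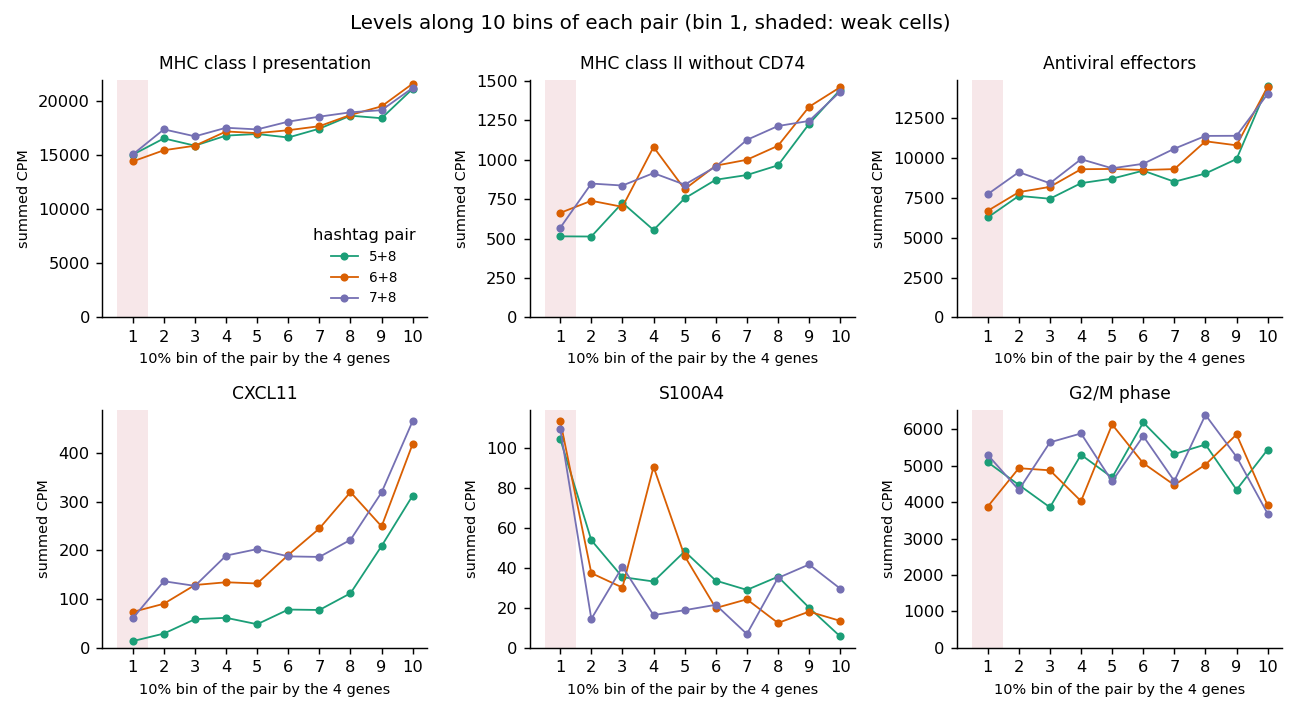
Each panel gives the summed CPM of a list or gene in 10 equal bins of the cells of each hashtag pair, ranked by the 4 genes that chose the weak cells; bin 1, shaded, is the weak cells. The interferon lists and CXCL11 are higher in bin 10 than in bin 1 in all 3 pairs, S100A4 is highest in bin 1, and the G2/M list has no common slope.

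The weak cells differed in make-up from the cells of pairs with a lower response. Pairs 3+7, 4+7 and 5+6, with 327, 297 and 310 cells, were taken for this after their levels were known to lie between pair 5+7 and the strong pairs, so the values are a description. B2M stood at 4754 to 5230 CPM in the weak cells of the 3 strong pairs, above 3673 to 3855 CPM in these intermediate pairs. HLA-DRA stood at 134 to 183 CPM in the weak cells, above 70.1 to 95.2 CPM, and the MHC class I list at 14432 to 15074 CPM, above 11846 to 12325 CPM. GBP1 stood at 261 to 343 CPM in the weak cells and at 479 to 527 CPM in the intermediate pairs, but as a gene of the rule it was chosen to be low. CXCL11 stood at 13.5 to 73.5 CPM in the weak cells, below 102 to 151 CPM, and TAP1 at 324 to 391 CPM, below 403 to 435 CPM. The transcription factor list stood at 2168 to 2694 CPM in the weak cells, below 2814 to 3123 CPM. Antiviral effectors overlapped between the weak cells and the intermediate pairs. Among genes outside the rule, the weak cells thus held more B2M and HLA-DRA and less CXCL11 and TAP1 than the intermediate pairs. The excess was not particular to the weak cells, since their whole pairs, 5+8, 6+8 and 7+8, stood higher still. These had 5919, 5738.5 and 5904 CPM of B2M and 231, 254 and 262 CPM of HLA-DRA. TAP1 stood at 413, 452 and 474 CPM in the whole pairs, in pair 5+8 within the range of the intermediate pairs. CXCL11 in the rest of pair 5+8, at 107 CPM, also lay within their range.

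**Figure D5:**
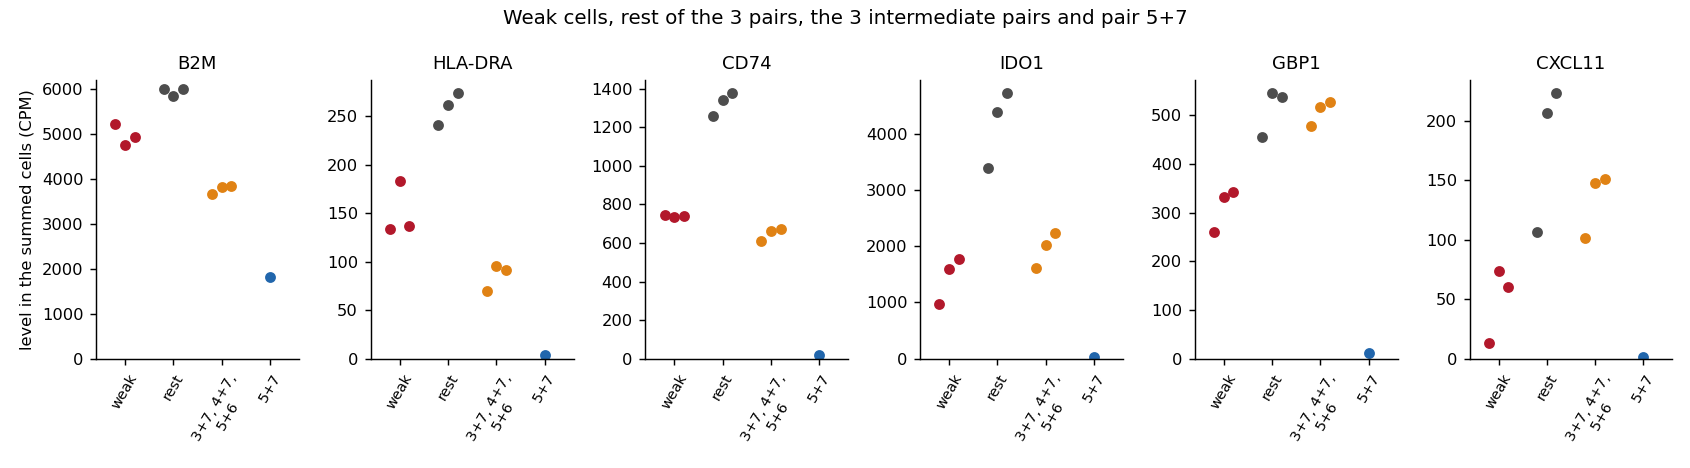
Points give the CPM of 6 genes in the summed cells of the weak group and of the rest (left to right, pairs 5+8, 6+8 and 7+8), of pairs 3+7, 4+7 and 5+6, and of pair 5+7; each axis starts at 0. B2M, HLA-DRA and CD74 in the weak cells lie above the intermediate pairs, GBP1 and CXCL11 below them, and IDO1 overlaps.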

How the data were processed

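The authors deposited 1 matrix of raw UMI counts for 36601 genes and 8 hashtags in 7804 barcodes, 246744793 gene UMIs and 14124227 hashtag UMIs in all. Version 5.0.1 of Cell Ranger wrote it, per the file headers; version 2.1.1, with the build GRCh38, stands in the submitters' processing notes. All barcodes had UMIs in both libraries. Counts were summed over the cells of each group and pair and divided by the summed gene UMIs (CPM). Intervals are exact: Poisson for sums, conditional for folds and Clopper-Pearson for shares, at 95%, for counting error only. A count under 3 UMIs was set to 3 in a fold. Genes with at least 300 UMIs over the 3 pairs were compared, without the 4 genes of the rule. To compare shares of cells with a UMI, each cell was thinned to 10000 UMIs, and no cell was shallower.

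The members and the 33 gene lists were chosen with earlier results of these data known. Genes named are the 15 lowest and 15 highest by median fold among those with 1 direction in all pairs, the up to 4 most abundant members of each list, and a fixed set of pathway genes; others are said to be chosen after their values were seen, or stand as members of a list. Doublets were not called: the hashtag rule removed cells with 3 strong hashtags, but not doublets within a pair. Free RNA was not subtracted. Calculations used Python 3.11.15, numpy 2.4.6, scipy 1.17.1 and pandas 2.3.3, and the counting scripts were tested on simulated data. Alternatives changed the share taken, the score, the depth, the filters, the pairs and the scaling. Where thinning was such an alternative, the cells were ranked anew on the thinned counts. Gene positions are those of GENCODE on GRCh38. Some items are not reported here.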

Additional observations from a re-analysis of the deposited data

Results flagged for a closer look

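Barcodes that the comparisons leave out also held the 4 genes that chose the weak cells, and are listed as a description. They come from strongly responding pairs or a mixture of conditions. The 21 cells of the 3 pairs set aside for KRT81, LDHB and S100A9 had 2174 CPM of these genes together. This was under the medians of 3029, 3930 and 4293 CPM per weak cell, so the limit left out cells low in the 4 genes. With no cells set aside, 110 weak cells were chosen, and 89 of them were among the 108. The 26 barcodes of the 3 pairs under 10000 gene UMIs had 5853 CPM, and the 91 barcodes over 20% mitochondrial UMIs had 3275 CPM. The 1041 filtered cells without a pair had 2512 CPM, from a mixture of conditions.

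Some lists moved in opposite directions in different pairs, which was not tested. S phase genes in the weak cells were 0.92 of the rest in pair 5+8 and 1.28 in pair 6+8. Replication-dependent histones were 1.11, 1.26 and 0.90 of the rest in pairs 5+8, 6+8 and 7+8. Growth arrest and cyclin D genes were 0.93, 1.09 and 0.93 of the rest, and immediate early genes 0.92 in pair 5+8 and 1.06 in pair 6+8.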

How the results depend on the processing

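The count of 38 genes lower in the weak cells became 71 with the lowest 5%, 15 with the lowest 20%, 84 without the KRT81, LDHB and S100A9 limit, 58 with a stricter cell filter that left 19 weak cells, 20 at 1000 UMIs or more, 65 at 30 UMIs or more, 4 at 2-fold and 86 to 118 when 1 pair was left out. The count of 3 higher genes became 25 with the lowest 5%, 7 by mean rank, 14 without IDO1, 12 with ranking on a separate portion of the UMIs, 6 within 3 depth classes, 30 after thinning, 204 without the limit, 6 with the stricter filter, 1 at 1000 UMIs, 946 at 30 UMIs, where the floor of 3 UMIs sets most folds, 1 at 2-fold, 6 by the mean of the cells' own CPM, 5 with the 10% rounded up and 25 to 32 when 1 pair was left out. Of the 38, the ranking without IDO1 kept 12, with 51 of 108 weak cells shared.

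MHC class I, 0.82 as the median of the pairs, became 0.756 with the lowest 5%, 0.882 with the lowest 20%, 0.842 without IDO1, 0.860 thinned, 0.706 without the limit, 0.686 with the stricter filter and 0.818 to 0.840 when 1 pair was left out. MHC class II, 0.59, became 0.668 with the lowest 20%, 0.503 by mean rank, 0.389 without IDO1, 0.528 without the limit, 0.455 with the stricter filter and 0.566 to 0.622 when 1 pair was left out. Antiviral effectors, 0.68, became 0.633, 0.737, 0.663, 0.740, 0.718, 0.700 and 0.725 with the lowest 5%, the lowest 20%, mean rank, no IDO1, ranking on a separate portion of the UMIs, 3 depth classes and thinning, 0.639 without the limit, 0.573 with the stricter filter, 0.722 among cells low in G2/M, 0.732 without the 53 cells highest in antiviral genes and 0.680 to 0.713 when 1 pair was left out. G2/M genes, 1.02, became 1.08, 0.912, 0.809, 0.969 and 0.898 with the lowest 5%, the lowest 20%, mean rank, no IDO1 and ranking on a separate portion of the UMIs, 0.917 without the limit, 0.942 with the hashtag factor of 10, 0.800 with the stricter filter, 1.08 among cells low in G2/M and 0.900 to 1.02 when 1 pair was left out. The mitochondrial genome, 0.97, became 0.933, 0.987, 0.992, 0.983 and 0.946 with the lowest 5%, mean rank, no IDO1, 3 depth classes and thinning, 0.821 without the limit, 0.961 with the hashtag factor of 10, 0.914 with the stricter filter, 0.963 among cells low in G2/M, 0.953 without the antiviral-high cells, 0.981 by the cells' own CPM and 0.948 to 0.980 when 1 pair was left out. Depth ratios stayed within 0.958 and 1.13, against 1.03. The causes of these shifts were not tested.

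CCL5, at a median fold of 0.14, turned to 1.21 with the stricter filter and 1.09 without the antiviral-high cells, and CXCL9, at 0.35, to 2.17 without the KRT81, LDHB and S100A9 limit. Of the values of called named genes under the alternatives, 165 of 234 stayed within the counting interval. The last 3 alternatives, without the antiviral-high cells, by the cells' own CPM and with the 10% rounded up, were chosen after seeing the data. No paired analysis was possible because the pool is 1 sample. With 108 weak cells, genes with few UMIs there, such as CCL5 and CIITA, have wide counting intervals.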
